A study of Mus musculus with 4 samples.

Results

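The 34 genes described here make up the unfolded protein response and the integrated stress response, the cell's programmes for misfolded protein in the endoplasmic reticulum (ER) and for blocked translation initiation. They were chosen by gene symbol, with no threshold on measured values but with earlier results of these data known, and all 34 were found among the 46603 Ensembl gene identifiers of the count table. Of these, 30 had enough counts to be tested, among 13001 genes tested in all. Asns, Psat1, Phgdh and Slc7a11 were below edgeR's filter on low counts and are given by their counts alone.

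Liver RNA came from 4 male HuRflox/flox mice on a C57BL/6 J background, all fed a Western diet with sugar water (WDSW) for 4 weeks. Mice 1 and 2 are labelled control and had received AAV8-TBGP-GFP. Mice 3 and 4 are labelled HuR hKO, for a hepatocyte-specific knockout of the RNA-binding protein HuR, and had received AAV8-TBGP-Cre. Both viruses use the promoter of thyroxine-binding globulin, which is active in hepatocytes, so the other cells of the liver keep HuR in both groups, and the labels give the mice as matched for age without stating it. In whole liver, fewer cells of a type and less RNA per cell cannot be told apart.

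As background, 3 sensors span the ER membrane. IRE1 (encoded by Ern1) splices the mRNA of Xbp1 into the form that makes an active transcription factor, ATF6 is cut in the Golgi to free a transcription factor, and PERK (Eif2ak3) phosphorylates the translation factor eIF2. ATF6 and XBP1 switch on chaperones, folding enzymes and the machinery of ER-associated degradation (ERAD), which returns misfolded proteins to the cytosol. Phosphorylated eIF2 lowers general translation and raises that of ATF4, whose targets handle amino acids, redox balance and cell death. Hepatocytes secrete most plasma proteins and hold much ER, which makes this response prominent in liver. Counts per gene show neither the splicing of Xbp1 nor the phosphorylation of eIF2 nor the translation of Atf4, so the levels below are of total mRNA.

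ATF6 and XBP1 act on chaperone promoters through the ER stress response element (ERSE), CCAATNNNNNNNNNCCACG, in which N is any base. The windows from 250 bases before to 50 bases after the RefSeq start site (assembly GRCm38.p6) were searched on both strands, and 30 of the 34 genes have such a window. The ERSE was found in 8 of these 30 (26.7%), against 37 of 27025 genes with a window (0.137%), and in 7 of 12 ER chaperone and folding genes (58.3%). The shorter ERSE-II, ATTGGNCCACG, was found in Herpud1 and Dnajb11 (6.67%), against 0.0444% of all genes. The UPRE was searched only as TGACGTGG, and the C/EBP-ATF response element, through which ATF4 acts, only as TGATGNAAT. These spellings were found in 0 of the 30, against 0.714% and 1.08% of all genes, and no matches of any element overlapped each other. Other spellings of these elements were not searched, so the 0 does not show that the genes lack them. The ERSE and ERSE-II were likewise searched only in the spellings given, so a window without a match may hold another form. A match is a description of these letters, not a site shown to be bound. The genes were chosen as members of the response that acts through the ERSE, so its higher share among them is not a result of these data. All 8 genes with an ERSE had their highest level in control mouse 1. So did the 5 chaperone and folding genes whose window holds no ERSE in this spelling. The matches upstream of a start site are shown as a description. Each is written 5′ to 3′ on the strand of its gene with the element in capitals, and 3 of the 9 ERSE matches lie in the reverse orientation.
Hspa5 ERSE, chr2:34772010-34772058, plus strand: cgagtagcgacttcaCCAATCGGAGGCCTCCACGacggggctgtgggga
Hsp90b1 ERSE, chr10:86705623-86705671, minus strand: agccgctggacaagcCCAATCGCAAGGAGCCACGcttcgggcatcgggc
Hsp90b1 ERSE, chr10:86705518-86705566, minus strand: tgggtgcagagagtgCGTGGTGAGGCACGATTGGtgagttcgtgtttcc
Dnajc3 ERSE, chr14:118937812-118937860, plus strand: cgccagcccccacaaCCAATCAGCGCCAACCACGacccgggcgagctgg
Creld2 ERSE, chr15:88819505-88819553, plus strand: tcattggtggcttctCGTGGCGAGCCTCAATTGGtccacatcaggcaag
Pdia6 ERSE, chr12:17266476-17266524, plus strand: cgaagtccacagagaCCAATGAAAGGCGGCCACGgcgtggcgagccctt
Calr ERSE, chr8:84847060-84847108, minus strand: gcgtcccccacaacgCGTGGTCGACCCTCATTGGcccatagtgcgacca
Canx ERSE, chr11:50325785-50325833, minus strand: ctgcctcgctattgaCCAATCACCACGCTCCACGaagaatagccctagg
Herpud1 ERSE-II, chr8:94386362-94386402, plus strand: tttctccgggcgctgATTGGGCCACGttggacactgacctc
Syvn1 ERSE, chr19:6046517-6046565, plus strand: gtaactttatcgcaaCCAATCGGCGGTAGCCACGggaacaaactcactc

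Hspa5 encodes BiP, the Hsp70 chaperone of the ER that also holds the 3 sensors inactive. The 250 bases before its start site are given whole, since BiP is the usual readout of the response. The exact match to the ERSE is in capitals, and looser matches were not searched or marked.
Hspa5 upstream, chr2:34771840-34772089, plus strand: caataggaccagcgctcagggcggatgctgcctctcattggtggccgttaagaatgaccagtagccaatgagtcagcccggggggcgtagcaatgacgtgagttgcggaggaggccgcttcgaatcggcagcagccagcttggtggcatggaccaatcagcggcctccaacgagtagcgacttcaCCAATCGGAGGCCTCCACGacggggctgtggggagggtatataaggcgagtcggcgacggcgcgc

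**Figure D1:**
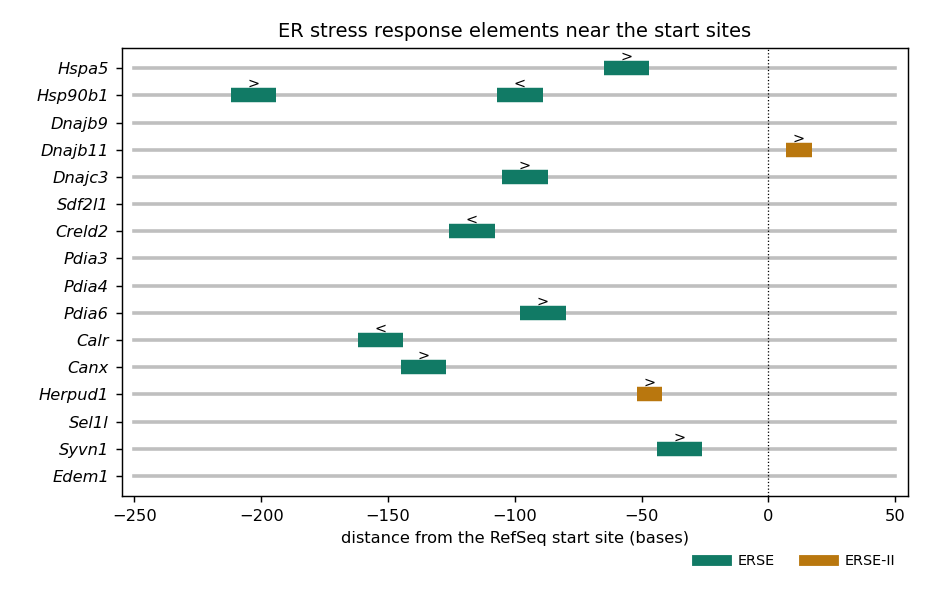
Position of the ERSE (green) and ERSE-II (brown) in bases from the RefSeq start site (0) in the 16 chaperone, folding and ERAD genes that have a window from -250 to 50. Arrowheads give the orientation, and all matches lie before the start site except that of Dnajb11, at 7 to 17.

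Counts on genes came to between 13032095 and 19715577 per library, so that 3 counts, the limit that a count of 0 allows, were between 0.159 and 0.226 CPM (counts scaled to a common library total, here TMM-scaled), counting error only. Elavl1, which encodes HuR, is the gene deleted in HuR hKO hepatocytes. It stood at 28.4 and 25.9 CPM in control mice 1 and 2 and at 37.7 and 34.4 CPM in mice 3 and 4, a log2 change of 0.41 (SE 0.135, unadjusted p = 0.016, adjusted p = 0.545 by edgeR's quasi-likelihood test). Log2 change here and below is the fitted log2 fold change of mice 3 and 4 over the controls, with its standard error (SE). Both values of the deleted gene were thus above both control values where the labels place the knockout. Whether labels or columns were exchanged, and whether the deletion lowers the count of the whole gene, was not tested, and an exchange of the labels would turn every direction given below. Groups go by their labels, and mice 3 and 4 stands for the libraries labelled HuR hKO.

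The comparison asks whether the stress response genes differ between livers labelled HuR hKO and control on this diet. No member passed an adjusted p of 0.05 in edgeR's quasi-likelihood test, where 3 of the 13001 genes did (0.0231%). At an unadjusted p under 0.05, Atf5 and Trib3 were higher in mice 3 and 4 (2 of 30, against 4.04% of all genes in that direction) and Pdia4 was lower (1 of 30, against 3.39%). The DESeq2 Wald test gave 2 members at an adjusted p under 0.05, Atf5 and Pdia4 (against 0.534% of all genes), and limma-voom gave 0 (against 0.0154%). Both values of mice 3 and 4 lay above both control values for 4 of the 30, Atf5, Creb3l3, Edem1 and Trib3, against 19.3% of all genes, and below them for 2, Pdia4 and Canx, against 18.8%. The fitted change was above 0 in 9 members and below 0 in 21, with a median log2 change of -0.07 against 0.00197 over all genes. Without scaling for library size, 22 members were above 0, with a median of 0.25 against 0.31 over all genes. Without control mouse 1 the direction turned, to 26 above and 5 below 0 with a median of 0.15. That fit held 31 members, as Asns passed its filter. Without control mouse 2 the median was -0.37. An exact permutation test of 2 mice against 2 cannot give a two-sided p below 0.333.

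**Figure D2:**
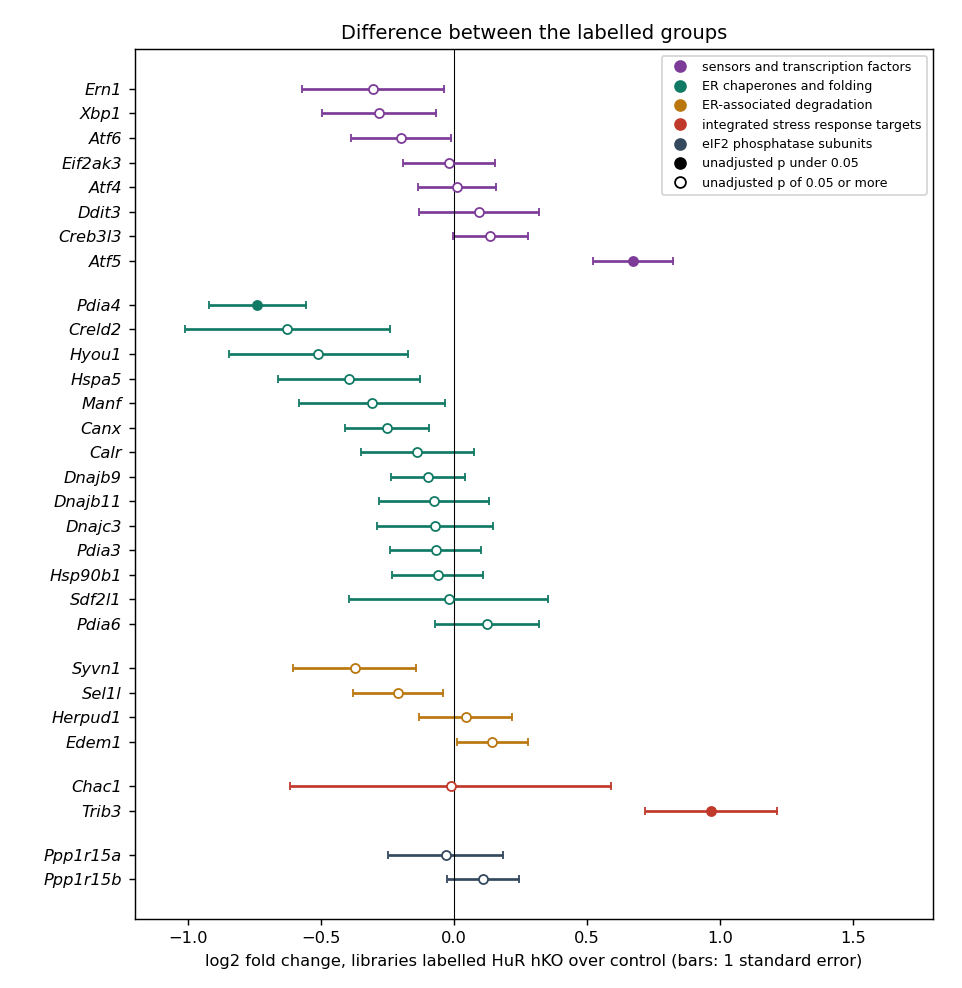
Log2 fold change of the libraries labelled HuR hKO over control for the 30 members tested, ordered within their roles (x axis, log2 units, with bars of 1 standard error from the edgeR fit of 2 against 2 mice). Filled points have an unadjusted p under 0.05 and are Atf5, Trib3 and Pdia4, and 13 of the 14 ER chaperone and folding genes lie below 0, while without scaling for library size, which moves the median of all genes to 0.31, 9 of them are above 0.

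Among the 8 sensors and transcription factors, Atf5 was the only one with an unadjusted p under 0.05. Atf5 encodes a bZIP factor that, like ATF4, is translated when eIF2 is phosphorylated. It lies on chr7:44812256-44816658 (minus strand, GRCm38). Its level was 257 CPM in control mouse 1, 292 CPM in control mouse 2, 472 CPM in mouse 3 and 403 CPM in mouse 4. Mice 3 and 4 exceeded both controls, with means of 438 ± 48.7 CPM (SD, n = 2) against 275 ± 24.5 CPM (SD, n = 2). The log2 change was 0.67 (SE 0.15, unadjusted p = 0.00201, adjusted p = 0.281 by edgeR's quasi-likelihood test). The sign was the same under all 13 alternative settings, from 0.54 to 0.97, and the adjusted p ranged from 0.0105 to 0.789. Atf5 shares 82 exon bases with Nup62 and with Il4i1 on the opposite strand, and the sources used here do not say whether counting used strand.

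Atf4, the central factor of the integrated stress response, had nearly equal group means. It stood at 66.8 and 79.3 CPM in the control mice and at 79.7 and 67.6 CPM in mice 3 and 4, with a log2 change of 0.01 (SE 0.148, adjusted p = 0.992 by edgeR's quasi-likelihood test). The groups overlapped entirely, and the sign of so small a value changed with the scaling. Ddit3, which encodes the death-promoting factor CHOP, was low, at 4.74 and 5.23 CPM in the controls and at 5.44 and 5.2 CPM in mice 3 and 4. Its log2 change was 0.09 (SE 0.226).

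Of the 3 sensors, Ern1 and Atf6 differed more between the control mice than between the group means. Ern1 was at 74.1 CPM in control mouse 1 and 39.6 CPM in control mouse 2, with 51.4 and 40.7 CPM in mice 3 and 4 between them. Atf6 was at 72.7 and 49.9 CPM in the controls and at 57.3 and 49.6 CPM in mice 3 and 4. Eif2ak3, by contrast, kept within a narrow range, from 9.5 CPM in mouse 4 to 10.2 CPM in control mouse 1. Xbp1 was at 239 and 184 CPM in the controls and at 209 and 139 CPM in mice 3 and 4, so that the range within each group exceeded the difference of the means, 211 against 174 CPM.

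Creb3l3 encodes CREB-H, an ER-anchored factor of the liver that acts on lipid metabolism and is freed by the same proteases as ATF6. It was at 312 and 307 CPM in the controls, 314 CPM in mouse 3 and 367 CPM in mouse 4. The groups did not overlap, but mouse 3 exceeded control mouse 1 by less than 2 CPM, and the log2 change was 0.14 (SE 0.142, adjusted p = 0.865 by edgeR's quasi-likelihood test).

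All 14 ER chaperone and folding genes had their highest level in control mouse 1, and 11 of them their lowest in control mouse 2. Over all genes tested, 29.1% were highest in control mouse 1. The level of control mouse 1 over that of control mouse 2 had a median of 1.55-fold over these 14 genes, against 1-fold over all genes. The absolute log2 ratio between the controls had a median of 0.63 for the 14 genes and of 0.217 for all genes, and between mice 3 and 4 of 0.08 for the 14 genes and of 0.197 for all genes. By these medians the 14 genes lay closer together in mice 3 and 4 than in the controls. Single genes differed more, as mouse 4 over mouse 3 ran from 0.753-fold for Creld2 to 1.21-fold for Calr. The genes behind the all-gene medians were not matched to the 14 for level.

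Hspa5 was at 812 CPM in control mouse 1, 425 CPM in control mouse 2, 475 CPM in mouse 3 and 465 CPM in mouse 4. Control mouse 1 was 1.71 times the next highest liver, and control mouse 2 lay below mice 3 and 4. The log2 change was -0.40 (SE 0.268, adjusted p = 0.779 by edgeR's quasi-likelihood test), and it was 0.13 without control mouse 1 and -0.79 without control mouse 2. Hyou1, a large Hsp70-related chaperone that works with BiP, was at 244 and 103 CPM in the controls and at 135 and 109 CPM in mice 3 and 4. Creld2, a small secreted ER stress protein, was at 66.9 and 24.9 CPM in the controls and at 34 and 25.6 CPM in mice 3 and 4. Both had the same order of livers as each other, with control mouse 1 highest, mouse 3 next, then mouse 4 and control mouse 2.

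Sdf2l1, which keeps client proteins soluble together with BiP's co-chaperones, had the widest range of the chaperones between controls. It stood at 39.7 CPM in control mouse 1 and 14.3 CPM in control mouse 2, a 2.79-fold ratio, and at 26.5 and 26.7 CPM in mice 3 and 4. The mean of each group was therefore nearly the same, 27 against 26.6 CPM, although the controls enclosed both other mice. Manf, a secreted protein with protective effects under ER stress, was at 129 and 66.1 CPM in the controls and at 86.8 and 70.8 CPM in mice 3 and 4. Manf shares exon bases with Dcaf1 on the opposite strand and with Rbm15b on its own, so part of its counts may be uncertain.

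The J-domain co-chaperones of BiP were also highest in control mouse 1, by differing degrees. Dnajb11 was at 114 and 71.2 CPM in the controls and at 88.3 and 87.7 CPM in mice 3 and 4. Dnajc3, which also restrains PERK, was at 267 and 162 CPM in the controls and at 209 CPM in mouse 4, with mouse 3 between that and control mouse 2. Dnajb9, a repressor of IRE1, differed least, with 41.2 and 35.4 CPM in the controls and 34.9 and 36.7 CPM in mice 3 and 4.

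Per exon length, Calr (calreticulin, lectin chaperone) had 222 CPM per kilobase of exon on average over the 4 mice, the highest of the members, followed by Herpud1 with 212, Atf5 with 179, Hsp90b1 with 167 and Hspa5 with 129. In CPM, Calr was at 803 and 536 in the controls and at 552 and 665 in mice 3 and 4. Hsp90b1, the ER form of Hsp90, was at 778 and 595 CPM in the controls and at 635 and 681 CPM in mice 3 and 4. Canx, the membrane-bound lectin chaperone calnexin, was at 340 and 262 CPM in the controls and at 257 and 248 CPM in mice 3 and 4, so that the groups were just apart. Its log2 change was -0.25 (SE 0.159, adjusted p = 0.766 by edgeR's quasi-likelihood test). Calr has a processed pseudogene, and Eif2ak3, Ddit3, Hsp90b1, Pdia6, Syvn1 and Ppp1r15b, among others, share exon bases with genes on the opposite strand, so how reads were split there is uncertain.

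Of the protein disulfide isomerases, which form and shuffle disulfide bonds, only Pdia4 had an unadjusted p under 0.05 in that test. Pdia4 lies on chr6:47796141-47813430 (minus strand, GRCm38). It was at 191 CPM in control mouse 1, 131 CPM in control mouse 2, 95.5 CPM in mouse 3 and 97.3 CPM in mouse 4. Mice 3 and 4 lay below both controls, and they differed from each other by less than the controls did. The means were 96.4 ± 1.28 CPM (SD, n = 2) against 161 ± 42.4 CPM (SD, n = 2) in the controls. The log2 change was -0.74 (SE 0.183, unadjusted p = 0.00357, adjusted p = 0.36 by edgeR's quasi-likelihood test). Over the 13 alternatives it ranged from -0.98 to -0.42 and the adjusted p from 0.0203 to 0.999. Without control mouse 1 it was -0.46, while 12 of the 14 chaperone and folding genes were then above 0.

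For the other isomerases the groups overlapped. Pdia3 was at 470 and 348 CPM in the controls and at 377 and 403 CPM in mice 3 and 4. Pdia6 was at 326 and 219 CPM in the controls and at 281 and 312 CPM in mice 3 and 4, and was the only chaperone or folding gene with a fitted change above 0, 0.12 on the log2 scale (SE 0.194).

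**Figure D3:**
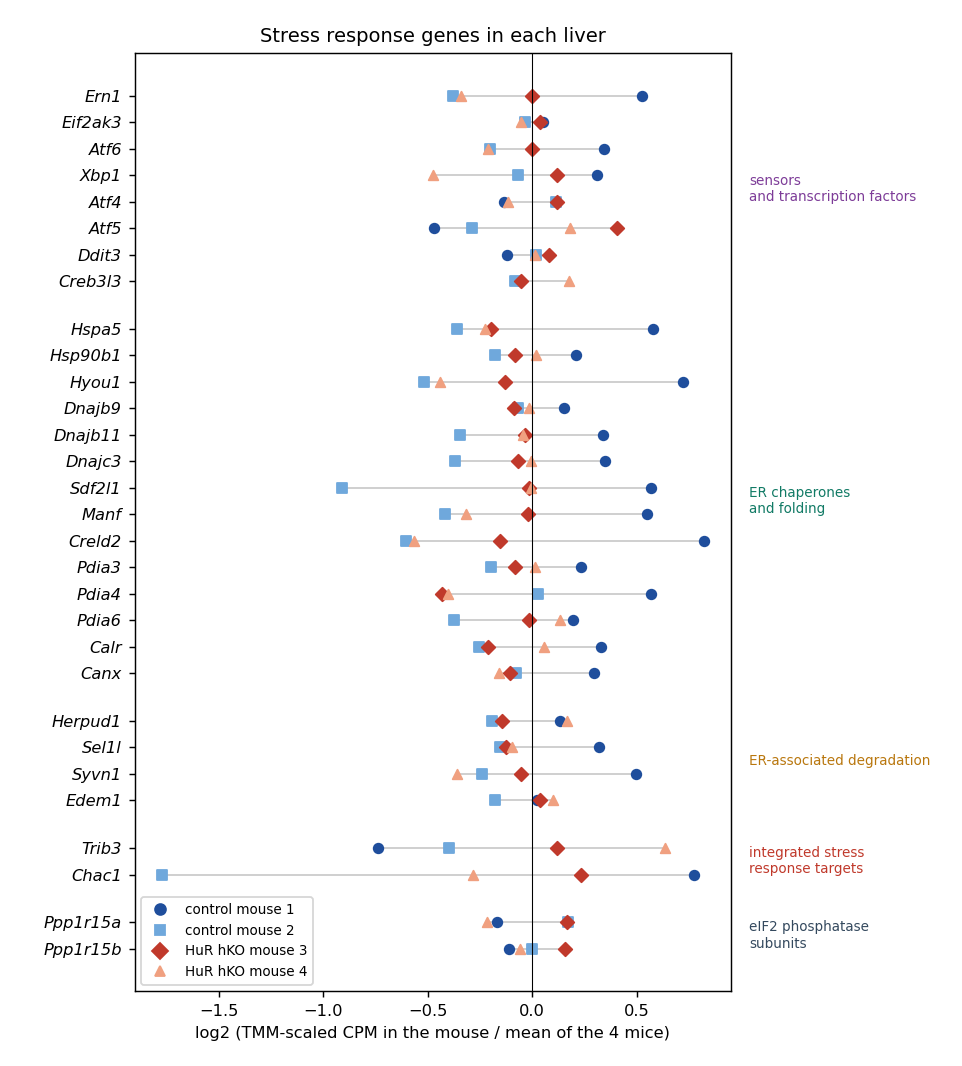
Level of each member tested in each mouse as the log2 ratio to the mean of the 4 mice (x axis, log2 units of TMM-scaled CPM), grouped by role. Control mouse 1 (dark circles) is the rightmost point for all 14 ER chaperone and folding genes, and for Atf5 and Trib3 it is the leftmost.

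Of the 4 ERAD genes, 2 were highest in control mouse 1, as the chaperones were. Syvn1, the ubiquitin ligase HRD1 at the core of ERAD, was at 97 and 58.3 CPM in the controls and at 66.3 and 53.7 CPM in mice 3 and 4. Sel1l, its membrane partner, was at 151 and 109 CPM in the controls and at 111 and 113 CPM in mice 3 and 4. Their log2 changes were -0.37 (SE 0.231) and -0.21 (SE 0.169), and without control mouse 1 they were 0.028 and 0.031.

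Herpud1, which links the ligase complex to the proteasome, was highest in mouse 4, with 542 and 433 CPM in the controls and 449 and 557 CPM in mice 3 and 4. Edem1, which targets misfolded glycoproteins, was at 176 and 153 CPM in the controls and at 178 and 186 CPM in mice 3 and 4. Its groups were apart by a small margin, with a log2 change of 0.14 (SE 0.134, adjusted p = 0.849 by edgeR's quasi-likelihood test).

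Of the 6 integrated stress response targets among the members, Trib3 and Chac1 passed the filter on low counts. Trib3, a pseudokinase induced by ATF4 and CHOP, lies on chr2:152337422-152344032 (minus strand, GRCm38). It had 62 and 79 counts in the controls and 121 and 228 counts in mice 3 and 4. That came to 4.67 and 5.9 CPM in control mice 1 and 2, 8.44 CPM in mouse 3 and 12.1 CPM in mouse 4. Mice 3 and 4 exceeded both controls, with means of 10.3 ± 2.59 CPM (SD, n = 2) against 5.28 ± 0.871 CPM (SD, n = 2). The log2 change was 0.96 (SE 0.247, unadjusted p = 0.00429, adjusted p = 0.381 by edgeR's quasi-likelihood test). It ranged from 0.68 to 1.31 over the 13 alternatives, with the adjusted p between 0.00413 and 0.999.

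Chac1, which degrades glutathione and is induced by ATF4, had the widest range of all members tested. It was at 14.8 CPM in control mouse 1 and 2.54 CPM in control mouse 2, a 5.84-fold ratio, and at 10.2 and 7.11 CPM in mice 3 and 4. The group means of 8.68 and 8.65 CPM hid this range, and the log2 change of -0.01 (SE 0.603) became 1.75 without control mouse 1 and -0.78 without control mouse 2. Chac1 and Trib3 are both ATF4 targets, yet control mouse 1 was the highest liver for Chac1 and the lowest for Trib3.

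The amino acid genes of the set were near the limit of detection. Asns, which makes asparagine, had 6 and 6 counts in the controls and 14 and 10 in mice 3 and 4. The serine synthesis genes Phgdh and Psat1 had 6 and 4 counts and 6 and 6 counts in the controls, and 8 and 12 counts and 6 and 3 counts in mice 3 and 4. Slc7a11, the cystine transporter, had 6 and 1 counts in the controls and 2 and 0 in mice 3 and 4. These genes were not tested in the main comparison.

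The 2 regulatory subunits of the eIF2 phosphatase, which end the response, differed little between the group means. Ppp1r15a, the inducible subunit GADD34, was at 8.13 and 10.3 CPM in the controls and at 10.3 and 7.86 CPM in mice 3 and 4. Ppp1r15b, the constitutive subunit, was at 107 and 116 CPM in the controls and at 129 and 111 CPM in mice 3 and 4. Their log2 changes were -0.03 (SE 0.217) and 0.11 (SE 0.136).

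**Figure D4:**
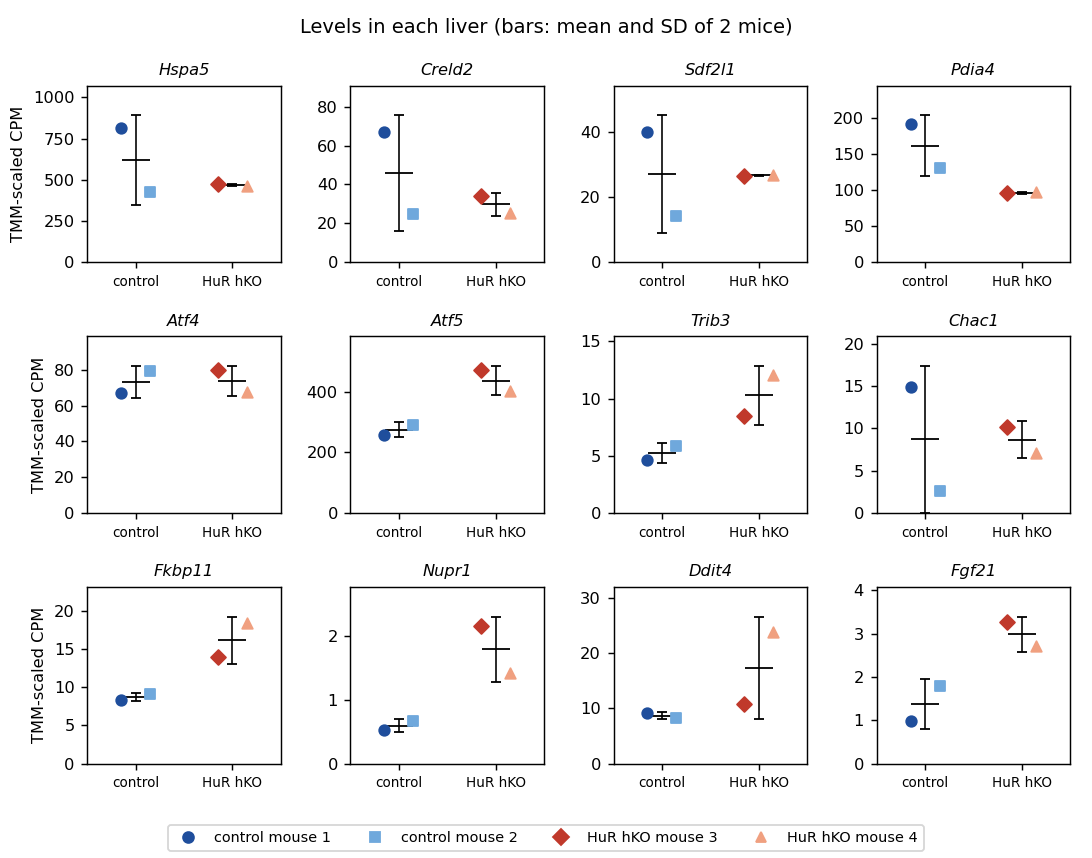
Level in TMM-scaled CPM (y axes from 0) in each mouse for 8 members and 4 related genes (Fkbp11, Nupr1, Ddit4 and Fgf21), with the mean and SD of the 2 mice of each label. For Hspa5, Creld2, Sdf2l1 and Chac1 the controls enclose both libraries labelled HuR hKO, and for Atf5, Trib3, Fkbp11, Nupr1, Ddit4 and Fgf21 both of these lie above both controls.

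The 2 control livers differed across much of the set. Control mouse 1 was highest of the 4 livers for 21 of the 30 members tested (70%), against 29.1% of all genes. It was at least 1.5 times control mouse 2 for 10 members (33.3%), against 7.83% of all genes, and the reverse ratio was reached by 0 members, against 7.05%. Between mice 3 and 4 a ratio of 1.5 was reached by 1 member in mouse 3, Xbp1, and by 0 in mouse 4, against 6.2% and 6.55% of all genes. These counts describe 1 liver, and with 2 control livers the data do not show which of them is typical of the group.

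Leaving out either control mouse changed which members had a low p, with the 1 remaining control assumed to vary like the other livers. Without control mouse 1, an unadjusted p under 0.05 was reached by 5 members, Atf5, Chac1, Pdia4, Sdf2l1 and Trib3, against 6.72% of all genes. Without control mouse 2 it was reached by 15, against 10.7% of all genes, and the 14 chaperone and folding genes were then all below 0, with a median log2 change of -0.41 against 0.2 without control mouse 1. Atf5, Trib3 and Pdia4 were in both sets.

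**Figure D5:**
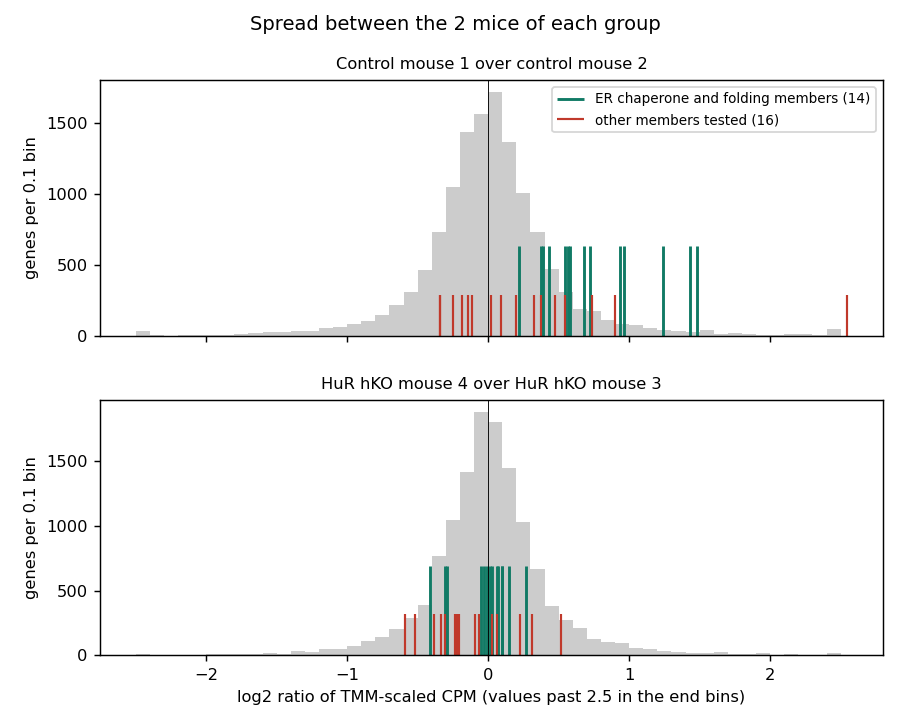
Distribution over the genes tested of the log2 ratio between the control mice (top) and between the libraries labelled HuR hKO (bottom), in genes per bin of 0.1, with each member as a line (green, 14 ER chaperone and folding genes, and red, the 16 others). All green lines lie right of 0 in the top panel, with a median of 0.63, and around 0 in the bottom panel, with a median of 0.02.

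The members with an exact match to the ERSE in the promoter window were described apart. Without an ERSE here means without that spelling, as looser matches were not searched. All 8 (Hspa5, Hsp90b1, Dnajc3, Creld2, Pdia6, Calr, Canx and Syvn1) were highest in control mouse 1, with a median log2 ratio between the controls of 0.65. Of the 18 members tested that have a window without an ERSE, 10 were highest in control mouse 1, with a median of 0.27. Over all genes tested 29.1% were highest in that liver. Within the ER chaperone and folding genes, the 7 with an ERSE had a median of 0.58 and the 5 without one 0.54, and all 12 were highest in control mouse 1. Genes without an ERSE here include Dnajb11 and Herpud1, which carry the ERSE-II.

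Related genes outside the set were taken from lists of the same pathways, chosen with earlier results of these data known. All p-values in the following are unadjusted values of edgeR's quasi-likelihood test, and no gene of these lists had an adjusted p below 0.239. Over all genes tested, 4.04% were higher and 3.39% lower at a p under 0.05. Of the 18 genes of these and the marker lists named for such a p, 17 lost it without 1 mouse or another, and Fkbp11 kept it. Of 28 other ER folding genes, 2 were higher and 1 lower in mice 3 and 4 at a p under 0.05, with a median log2 change of 0.05. Fkbp11, a prolyl isomerase of the secretory pathway, had the lowest p (0.00152), at 8.35 and 9.11 CPM in the controls and at 13.9 and 18.4 CPM in mice 3 and 4, a log2 change of 0.89 (SE 0.191). Rcn1, a calcium-binding ER protein, was also higher (log2 change 0.57), and Txndc11 lower (-0.46, and -0.25 without mouse 3). Control mouse 1 was highest for 9 of these 28 genes, against 29.1% of all genes and all 14 chaperone and folding members. It was above control mouse 2 for 18 of the 28, against 6547 of the 12970 tested genes with counts in both. The median ratio between the controls was 1.09-fold for the 28 genes, 1.55-fold for the 14 members and 1-fold over all genes.

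Among 31 genes of translocation into the ER and N-glycosylation, Sec61g of the translocon was higher (log2 change 0.50) and Stt3b of the oligosaccharyltransferase lower (-0.39), with a median of -0.02 for the list. Sec61g was at 0.25 without mouse 4 and Stt3b at -0.15 without control mouse 1. Control mouse 1 was highest for 17 of the 31, against 29.1% of all genes, and its summed level was 2912 CPM against 2630 CPM in control mouse 2. Among 23 other ERAD genes, Derl2, a channel component, was higher (0.41) and Edem3 lower (-0.47, and -0.20 without control mouse 1), with a median of 0.01.

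Other targets of ATF4 and the integrated stress response had more genes higher than lower. Of 31 tested of 34 listed, 24 had a fitted change above 0 and 7 below, against 6544 and 6457 of the 13001 genes tested. The median log2 change was 0.15 against 0.00197 over all genes. This split was not counted with each mouse left out. At a p under 0.05, 4 were higher (against 4.04% of all genes) and 0 were lower. Nupr1, a stress-induced chromatin protein, had 7 and 9 counts in the controls and 31 and 27 counts in mice 3 and 4, with a log2 change of 1.56 (SE 0.484, adjusted p = 0.511 by edgeR's quasi-likelihood test). Ddit4, an inhibitor of mTORC1, was at 9.18 and 8.21 CPM in the controls, 10.7 CPM in mouse 3 and 23.9 CPM in mouse 4. Its log2 change of 1.01 (SE 0.336) was 0.31 without mouse 4. Fgf21, a hormone of the liver under metabolic stress, had 13 and 24 counts in the controls and 47 and 51 in mice 3 and 4 (log2 change 1.10, SE 0.397, and 0.72 without control mouse 1). Eif4ebp1, a repressor of translation initiation, was at 43.6 and 45.2 CPM in the controls and at 56.7 and 56.4 CPM in mice 3 and 4 (log2 change 0.35, SE 0.124). Of the 15 genes of eIF2, its exchange factor and its other kinases, 0 had a p under 0.05 in either direction, and of 13 other transducers of ER stress 1 did, the pore-forming death protein Bax (log2 change 0.48, and 0.25 without mouse 3).

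Markers of the liver's cell types were set beside these levels. Hepatocyte markers were dominant, with a summed level of 76480 to 81490 CPM in the controls and of 73330 to 82520 CPM in mice 3 and 4, led by Alb and Apoa1, and 0 of 10 had a p under 0.05 in edgeR's quasi-likelihood test. Cholangiocyte markers moved with control mouse 1 in part. Krt19 was at 12.2 CPM in that liver and at 0.373 to 1.8 CPM in the others, Krt7 at 2.63 CPM against 0.558 to 0.69 CPM, and Epcam at 3.61 CPM against 1.12 to 1.96 CPM, while Sox9 and Spp1 were not highest there and Cftr was at or near 0. Summed over the 6 genes of this list the level was 52.8 CPM in control mouse 1, 27.6 CPM in control mouse 2 and 39.6 to 49.8 CPM in mice 3 and 4, with Spp1 higher in the latter (log2 change 0.51, and 0.29 without control mouse 2). The pancreatic gene Ctrb1 was at 4.06 CPM in control mouse 1 and at most 0.209 CPM in the other livers. Of the other 8 acinar markers, Cela1 made up nearly all counts and was higher in mice 3 and 4 (log2 change 0.73, and 0.25 without mouse 4), while the defining enzymes were at or near 0. The whole acinar list summed to 9.63 to 13.7 CPM in the controls and to 13.7 to 20.6 CPM in mice 3 and 4. The part of these cells in the high chaperone levels was not tested.

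Col1a1 and Col3a1 were higher in mice 3 and 4 (log2 changes 0.63 and 0.59, and 0.26 and 0.30 without mouse 4), and the 8 stellate cell markers summed to 210.2 to 210.6 CPM in the controls and to 229.8 to 281.6 CPM in mice 3 and 4. Kupffer cell markers, led by Clec4f and Cd5l, summed to 167 to 173 CPM against 180 to 195 CPM, and endothelial markers, led by Clec4g and Stab2, to 214 to 244 CPM against 242 to 277 CPM. Of the 8 Kupffer cell markers, 5 had a log2 change above 0 and 3 below, from -0.922 to 0.415. In each of these 2 lists 0 of 8 genes had an unadjusted p under 0.05 in edgeR's quasi-likelihood test. Neutrophil markers stayed at or below 2.39 CPM in sum, and the plasma and B cell list was dominated by Sdc1, which hepatocytes also express, with sums of 175 to 176 CPM against 180 to 219 CPM. The 14 clock and feeding genes, of which 13 were tested, had 0 with a p under 0.05, with sums of 1523 to 1610 CPM against 1780 to 1898 CPM. The part of any of these in the levels of Atf5, Trib3 and Pdia4 was not tested.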

How the data were processed

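Total liver RNA of 4 mice was sequenced after Genewiz's protocols. The authors deposited whole-number counts per gene for each mouse without normalization, and the submitters' processing notes name RSEM and GRCm38 without a version or role, so the counts may be rounded estimates. Use of strand is not given in the sources used here. Symbols matched 46005 of 46603 identifiers, unnamed ones held at most 0.0722% of a library, and coordinates are from GENCODE M21 (GRCm38).

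Genes were kept by edgeR's default filter. It asks for a CPM worth 10 counts at the median library size in at least 2 libraries, and for 15 counts in total. They were scaled with TMM and compared as 2 against 2 mice with the edgeR 4.0.16 quasi-likelihood test (R 4.3.3). Benjamini-Hochberg adjustment ran over 13001 genes. Values are CPM on TMM-scaled totals. The libraries are from separate mice, and counts of every pair differed by more than sampling noise (chi-square per degree of freedom 21.2 to 32.7). The fit was tested on simulated data. Alternatives used DESeq2 1.42.0, limma 3.58.1, other scalings and filters, and each mouse left out. Tables and figures were made with python 3.11.15, pandas 2.3.3, numpy 2.4.6, scipy 1.17.1 and matplotlib 3.10.9. Promoter windows are from RefSeq (GRCm38.p6).

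Members, role groups and lists were chosen with earlier results of these data known. The genes named are all 34 members, Elavl1, genes of the other lists with an unadjusted p under 0.05 (up to 5 a list) and up to 2 abundant genes of each marker list. The cholangiocyte and acinar markers named beside control mouse 1, and genes given for their place in the controls, were chosen after their values were seen. A marker gene is not reported here and was left out of its list.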

Additional observations from a re-analysis of the deposited data

How the results depend on the processing

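Atf5 and Trib3 kept an unadjusted p under 0.05 under all 13 alternatives, and Pdia4 under 12, losing it without scaling for library size (unadjusted p = 0.203). Members with an adjusted p under 0.05 numbered 1 without scaling (Trib3), 3 without a filter on low counts (Atf5, Pdia4 and Trib3) and 2 in the DESeq2 Wald test. Members with an unadjusted p under 0.05 numbered 7 without a filter, and all such genes 1466 without a filter and 568 in the DESeq2 Wald test, against 966. Without scaling, the median of all genes moved to 0.31 on the log2 scale and that of the members to 0.25, with 22 above 0. In that setting the median of the members stayed below that of all genes, while without control mouse 1 it was 0.149 against 0.00199.

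With each mouse left out, 0 to 2 members had an adjusted p under 0.05 (2 without control mouse 2, Creld2 and Pdia4), 3 to 15 an unadjusted one, 7 to 26 were above 0, the median ran from -0.37 to 0.15, and 566 to 1449 genes in all had an unadjusted p under 0.05. Members with groups apart numbered 23 without control mouse 1, 29 without control mouse 2, 12 without mouse 3 and 11 without mouse 4, against 6. Groups of 1 mouse against 2 separate more easily. The share over all genes was not counted for these fits, so nothing is read from these counts.

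The log2 fold changes that turned sign without scaling were Eif2ak3 (0.29), Atf6 (0.10), Hsp90b1 (0.26), Dnajb9 (0.22), Dnajb11 (0.24), Dnajc3 (0.25), Sdf2l1 (0.30), Pdia3 (0.25), Calr (0.20), Canx (0.059), Sel1l (0.10), Chac1 (0.28), Ppp1r15a (0.26). Atf4 turned with upper quartile factors (-0.00016) and without a filter (-0.00094), and Sdf2l1 and Chac1 with limma-voom (0.16 and 0.45). With each mouse left out, sign changes lay within these ranges: Ern1 (-0.69 to 0.20), Eif2ak3 (-0.081 to 0.027), Atf6 (-0.44 to 0.086), Atf4 (-0.13 to 0.14), Hspa5 (-0.79 to 0.13), Hsp90b1 (-0.24 to 0.13), Hyou1 (-0.999 to 0.23), Dnajb9 (-0.20 to 0.0038), Dnajb11 (-0.37 to 0.29), Dnajc3 (-0.39 to 0.32), Sdf2l1 (-0.58 to 0.89), Manf (-0.71 to 0.24), Creld2 (-1.17 to 0.24), Pdia3 (-0.27 to 0.15), Pdia6 (-0.13 to 0.42), Calr (-0.40 to 0.17), Herpud1 (-0.12 to 0.20), Sel1l (-0.43 to 0.031), Syvn1 (-0.69 to 0.028), Chac1 (-0.78 to 1.75), Ppp1r15a (-0.25 to 0.15), Ppp1r15b (-0.021 to 0.21). The changes without scaling came with the shift of all genes, and for the other settings, apart from fewer samples, the cause was not tested. No paired analysis was possible because the mice are numbered 1 to 4 without a number shared between groups. The depth limits genes of few counts (Asns, Psat1, Phgdh, Slc7a11), and 2 mice a group limit all tests.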

Other observations

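Protein-folding genes outside the ER were read in the same livers. Of 15 cytosolic heat shock genes, 14 were higher in control mouse 1 than in control mouse 2. The same held for 6547 of the 12970 tested genes with counts in both controls. Control mouse 1 was highest for 10 of the 15, against 29.1% of all genes. The median was 1.26-fold between the controls, against 1-fold over all genes, and the summed level was 3167 CPM against 2564 CPM. Mice 3 and 4 had sums of 2898 and 2666 CPM, with a median log2 change of -0.13. In edgeR's quasi-likelihood test 0 of the 15 had an unadjusted p under 0.05 between the groups. Over all genes 4.04% were higher and 3.39% lower at that p. The 11 genes of the mitochondrial unfolded protein response had a median ratio of 1-fold between the controls. Mouse 4 was highest for 9 of them, against 3471 of the 13001 genes tested. Their median log2 change was 0.11, and 0 of the 11 had an unadjusted p under 0.05 in the same test.

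Genes known as targets of CREB-H in liver were mostly lower in control mouse 1 than in control mouse 2, a comparison of 1 pair of livers. Of 13, 3 were higher in control mouse 1, against 6547 of the 12970 tested genes with counts in both controls. The median was 0.779-fold, against 1-fold over all genes. Apoc2, an activator of lipoprotein lipase, was at 237 and 404 CPM in the controls and at 419 and 683 CPM in mice 3 and 4 (log2 change 0.78, SE 0.292, adjusted p = 0.587 by edgeR's quasi-likelihood test). Ppara, the fatty acid receptor that works with CREB-H, was at 66.7 and 64.7 CPM in the controls and at 74.5 and 106 CPM in mice 3 and 4 (log2 change 0.46, SE 0.175). Together with Fgf21 these were the 3 genes of the list with an unadjusted p under 0.05, all higher in mice 3 and 4, against 4.04% of all genes in that direction. Without mouse 4 the log2 changes were 0.39 for Apoc2 and 0.18 for Ppara, and without control mouse 1 they were 0.43 for Apoc2 and 0.72 for Fgf21, each with an unadjusted p above 0.05 in the same test.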
